A study of Homo sapiens with 9 samples.

Results

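ISG15 is a ubiquitin-like protein, and the genes described here are ISG15 itself and the enzymes that attach it to target proteins or remove it: UBA7, UBE2L6, HERC5 and USP18. They are 5 of 19974 protein-coding genes considered on chromosomes 1 to 22 and X. The genes were chosen by name, with earlier results of these data in view, and every ATAC-seq peak in the body of a gene or within 10 kb of it was taken from 4 deposited peak lists. ATAC-seq maps accessible chromatin with the Tn5 transposase, which inserts adapters into open DNA. The 4 lists held 39194 to 60262 peaks, and 9 of 71597 merged regions (overlapping peaks of the 4 lists joined into 1) lay in the 5 neighbourhoods.

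All groups were HEK293T cells, a human embryonic kidney line, grown without any treatment such as interferon. The control carried a CRISPR/Cas9 non-targeting guide and no knockout (2 libraries, batches 2 and 3). The other groups were the IGF2BP1 knockout (3 libraries, batches 1, 2 and 3), the IGF2BP2 knockout (2 libraries, batches 2 and 3) and the IGF2BP3 knockout (2 libraries, batches 2 and 3), each lacking 1 member of a family of RNA-binding proteins. Each knockout was 1 clone, grown from a sorted cell after transient transfection with plasmids carrying 3 guides, so effects of genotype and of clone cannot be told apart. The authors deposited 1 list of peak positions per group, without heights or values per library. No difference between lists could therefore be set against a spread between replicates, no test was made, and the read depth behind a missing peak is unknown. The control list was the shortest, with 39194 peaks, against 50917, 60262 and 44041 for the IGF2BP1, IGF2BP2 and IGF2BP3 knockouts. A site held by a knockout and not by the control is therefore held by a longer list and missing from the shortest.

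In the interferon response, ISG15 is made as a precursor, activated by the E1 enzyme UBA7, passed to the E2 enzyme UBE2L6 and attached to newly made proteins by the E3 ligase HERC5. USP18 removes it again and, separately from its protease activity, dampens signalling at the type I interferon receptor. All of these genes are known interferon-stimulated genes, a class driven mainly through promoter sequences called interferon-stimulated response elements (ISREs).

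The ISG15 promoter was the one that differed in presence between lists, and it is shown first with that of HERC5, which was accessible in all lists and also holds ISRE core matches. The 250 bases before the RefSeq gene start (GRCh38.p14) are printed 5′ to 3′ on the strand of the gene. UBE2L6, whose peak varied least, is shown for contrast. The ISG15 window lies on the plus strand (chr1:1013247-1013496), HERC5 on the plus strand (chr4:88456869-88457118) and UBE2L6 on the minus strand (chr11:57567936-57568185). Capitals mark matches to the ISRE core AAANNGAAA on either strand.

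ISG15: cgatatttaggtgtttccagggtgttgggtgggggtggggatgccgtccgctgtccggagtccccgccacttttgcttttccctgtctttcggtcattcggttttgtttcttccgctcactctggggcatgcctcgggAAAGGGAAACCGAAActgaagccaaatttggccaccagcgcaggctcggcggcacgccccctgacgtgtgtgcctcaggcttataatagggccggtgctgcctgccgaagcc

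HERC5: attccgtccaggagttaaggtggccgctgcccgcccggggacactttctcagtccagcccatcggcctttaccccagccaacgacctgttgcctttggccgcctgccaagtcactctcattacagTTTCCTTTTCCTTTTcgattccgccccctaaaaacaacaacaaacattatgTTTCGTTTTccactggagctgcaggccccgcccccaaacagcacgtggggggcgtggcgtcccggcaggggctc

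UBE2L6: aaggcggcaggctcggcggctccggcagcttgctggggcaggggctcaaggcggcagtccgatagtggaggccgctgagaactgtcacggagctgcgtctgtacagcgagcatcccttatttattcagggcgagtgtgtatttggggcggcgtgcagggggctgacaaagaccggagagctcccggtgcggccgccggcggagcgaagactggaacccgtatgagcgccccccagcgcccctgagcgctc

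In ISG15, 2 overlapping matches on the printed strand ran from 112 to 98 bases before the gene start. In HERC5, 2 overlapping matches on the opposite strand ran from 125 to 111 bases before the start, and another ran from 74 to 66 bases before it. The UBE2L6 window held no match, and neither did the window of its second RefSeq start, at 57567672. The STAT site TTCNNNGAA, which reads the same on both strands, had no match in any of these windows. Over 22156 promoter windows of protein-coding genes (300 bases, to 50 bases past the start), 8.82% held the ISRE core and 6.79% the STAT site. The 300-base windows held 20 CG dinucleotides in ISG15, 21 in HERC5 and 32 at the upstream start of UBE2L6, against a median of 21. A match describes the sequence and does not show a bound site. The matches in HERC5 lay under a peak in all 4 lists, and those in ISG15 under a peak in 2 lists.

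A promoter peak was counted when it came within 1 kb of the gene start. For USP18 and UBA7 the reference used here gave no strand, so a position within 1 kb of either gene end was counted, as for other genes without a strand. By this rule 3 of 5 members had a promoter peak in the control and in IGF2BP1 knockout cells, and 4 of 5 in the IGF2BP2 and IGF2BP3 knockouts. The share among all protein-coding genes was 66.8% in the control, 68.9% in IGF2BP1 knockout cells, 68.4% in the IGF2BP2 knockout and 67.7% in IGF2BP3 knockout cells. With 5 genes, these counts do not set the members apart from other genes. The member that made the difference was ISG15.

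**Figure D1:**
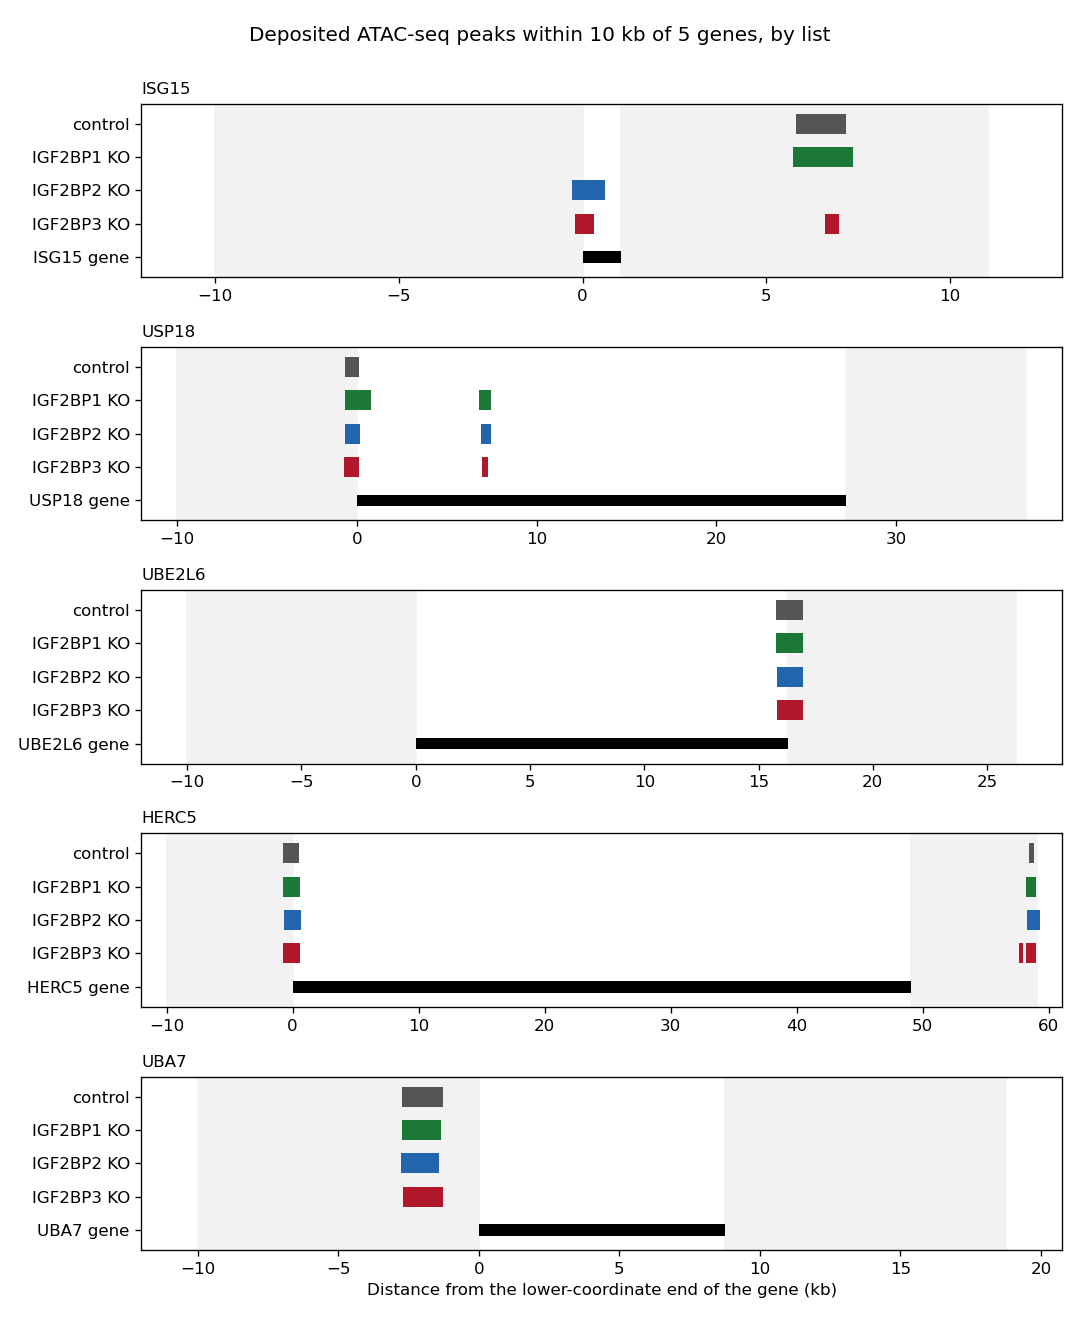
Position of every peak within 10 kb of each gene, by list. The x axis is the distance in kb from the lower-coordinate end of the gene, coloured bars are peaks to scale, the black bar is the gene and the grey bands are the 10 kb on either side. ISG15 carries a promoter peak in the IGF2BP2 and IGF2BP3 knockout lists, and USP18 an internal peak in the 3 knockout lists.

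ISG15, the modifier itself, is a gene of 1044 bp on chromosome 1 (1013497 to 1014540). The control and IGF2BP1 knockout lists held no peak in the gene or at its start. The IGF2BP2 knockout list had a peak of 898 bp from 1013209 to 1014106, which reached from 288 bp before the gene start to 609 bp past it. Its width stood at percentile 73.8 among the peaks of its own list. In the IGF2BP3 knockout list, a narrower peak of 539 bp from 1013280 to 1013818 reached from 217 bp before the start to 321 bp past it, at percentile 28.5. Both peaks covered the pair of overlapping ISRE core matches printed above.

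Among the 6630 protein-coding genes without a control promoter peak, 8.78% had one in the IGF2BP2 knockout list and 6.8% in the IGF2BP3 knockout list. The combination seen at ISG15, a promoter peak in these knockouts and in neither other list, occurred at 50 of 19974 genes (0.25%). These shares were read from the same lists in which the ISG15 pattern had been noticed, and are given as a description. The IGF2BP2 knockout list held 9038 peaks at gene starts that were at least 898 bp wide, and 92 of them (1.02%) had no overlapping control peak. For the IGF2BP3 knockout list and a width of at least 539 bp, the number was 363 of 12307 (2.95%). These width limits are those of the ISG15 peaks themselves, so these shares too are given only as a description.

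The next peak along the chromosome showed the opposite order of lists. It spans the end of AGRN nearest to ISG15, 4.69 kb from ISG15. AGRN encodes agrin, a proteoglycan that organises the neuromuscular junction. The AGRN peak measured 1351 bp in the control (1019318 to 1020668, percentile 88.3) and 1618 bp in IGF2BP1 knockout cells (1019227 to 1020844, percentile 93.4). It measured 368 bp in IGF2BP3 knockout cells (1020104 to 1020471, percentile 7.5), 0.272 times the control width, and was missing from the IGF2BP2 knockout list. The list with the widest ISG15 peak was therefore the one without an AGRN peak, and the lists without an ISG15 peak had the wide AGRN peaks.

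For comparison, 1.97% of genes with a control promoter peak lacked one in IGF2BP2 knockout cells. Of 3461 control peaks at gene starts that were at least 1351 bp wide, 19 (0.549%) had no counterpart there. In the IGF2BP3 knockout, 4.08% of genes with a promoter peak in both lists had one at least 1.5 times narrower than the control. The AGRN ratio of 0.272 is beyond that limit and stood at percentile 0.1 of the ratios of these genes.

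Just outside the 10 kb limit, 11.3 kb from ISG15, a peak between HES4 and ISG15 was present in the control (588 bp) and the IGF2BP1 knockout (496 bp) and missing from the other lists. Regions held by the control and the IGF2BP1 knockout alone made up 1.26% of all regions. The HES4 promoter, 12.3 kb from ISG15, had a peak in every list, with widths of 1348 bp in the control and 1173, 859 and 1123 bp in cells lacking IGF2BP1, IGF2BP2 and IGF2BP3. HES4 is a transcriptional repressor of the hairy and enhancer of split family.

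Within 100 kb of ISG15 there were 20 regions, of which 14 (70.0%, against 41.5% of all regions) were in all 4 lists. A window of this size was chosen after the values were seen. Of the others, 3 were missing from the IGF2BP2 knockout alone (15.0%, against 0.897% of all regions), at SAMD11, KLHL17 and AGRN. The SAMD11 region, 72.5 kb from ISG15, measured 779, 867 and 686 bp in the control, IGF2BP1 knockout and IGF2BP3 knockout. The KLHL17 region, 52.1 kb away, measured 941, 936 and 798 bp in the same lists. ISG15 was the only region within 100 kb that the IGF2BP2 knockout list held and the control list lacked.

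**Figure D2:**
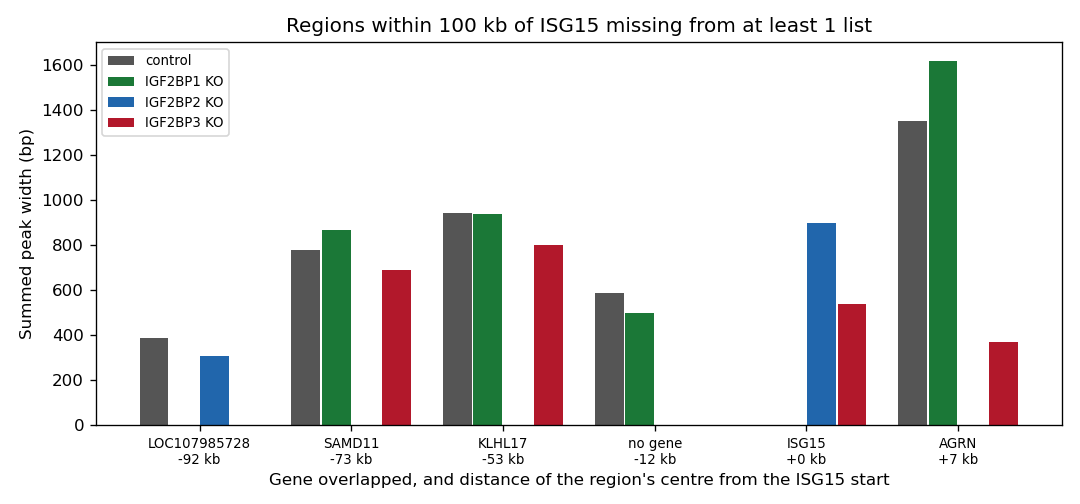
Summed peak width in bp (y axis, from 0) in each list for the 6 regions within 100 kb of ISG15 that at least 1 list lacked, ordered along the chromosome with the gene overlapped and the distance of the region's centre from the ISG15 start. A missing bar means no peak. The IGF2BP2 knockout lacks SAMD11, KLHL17 and AGRN and has the tallest ISG15 bar, 898 bp.

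UBA7, the E1 enzyme that activates ISG15, is a gene of 8745 bp on chromosome 3 (49805209 to 49813953). None of the 4 lists held a peak in its body or within 1 kb of either end. The single region within 10 kb lay at the start of the neighbouring gene INKA1, 1.26 kb beyond the lower-coordinate end of UBA7, which as background is its 3′ end. Its peak was 1478 bp wide in the control, 1402 bp in IGF2BP1 knockout cells, 1344 bp in IGF2BP2 knockout cells and 1424 bp in IGF2BP3 knockout cells, at percentiles from 87.7 to 92.6. The INKA1 widths stood at 0.949, 0.909 and 0.963 times the control. The UBA7 gene thus had no called peak of its own in any genotype, and its neighbour had a wide one throughout. A window of 2 kb in place of 1 kb counts the INKA1 peak as a UBA7 peak in all 4 lists.

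UBE2L6, the E2 enzyme that carries ISG15, spans 16274 bp on chromosome 11 (57551662 to 57567935). Its promoter peak was nearly the same in every list. The control peak ran from 57567433 to 57568592 (1160 bp, percentile 79.9) and the IGF2BP1 knockout peak from 57567435 to 57568615 (1181 bp, percentile 77.7). The IGF2BP2 knockout peak ran from 57567461 to 57568600 (1140 bp, percentile 86.3) and the IGF2BP3 knockout peak from 57567467 to 57568594 (1128 bp, percentile 81.0). Relative to the control, the widths were 1.02, 0.983 and 0.972.

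The 4 UBE2L6 peaks had 95.2% of their joint span in common. Over 11447 regions at protein-coding gene starts with 1 peak in each list, the median of this share was 76.8%, and UBE2L6 stood at percentile 98.7. There was no other peak in the body of UBE2L6 or within 10 kb of it in any list. Both RefSeq starts lay under the peak in all 4 lists, with all 300 bases of each promoter window covered.

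HERC5, the main human E3 ligase for ISG15, spans 49045 bp on chromosome 4 (88457119 to 88506163). Its promoter peak was present in every list, with 1253 bp in the control (88456358 to 88457610), 1356 bp in IGF2BP1 knockout cells (88456378 to 88457733), 1366 bp in IGF2BP2 knockout cells (88456420 to 88457785) and 1421 bp in IGF2BP3 knockout cells (88456317 to 88457737). The peaks began 699 to 802 bp before the gene start and ended 491 to 666 bp past it, and all 4 covered the 3 ISRE core matches. The control peak was the narrowest, and the knockout peaks were 1.08, 1.09 and 1.13 times as wide. These ratios stood at percentiles 53.0, 77.3 and 82.1 among all genes with a promoter peak in both lists, so larger ratios were common. The joint span of these peaks also overlapped the long noncoding RNA LOC102723458, a start or end of which lay within 1 kb of that span.

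Beyond the other end of HERC5, at 9.13 kb and so just inside the 10 kb limit, a second region was in all 4 lists with different widths. The control peak was 375 bp wide (88515561 to 88515935, percentile 6.0). The peaks of the IGF2BP1, IGF2BP2 and IGF2BP3 knockouts were 794, 1032 and 767 bp wide, at percentiles 45.8, 81.6 and 55.6. The control was thus the lowest list at this site, and the knockouts stood at 2.12, 2.75 and 2.05 times its width. Of 29686 regions in all 4 lists, 1.15% were at least 1.5 times wider than the control in all 3 knockouts. All 3 knockouts share the 1 control list, so a narrow control peak enters each ratio. The region overlapped no annotated gene, and the nearest gene start on the far side was the shared start of PIGY, PYURF and HERC3. The peak there, 16.7 kb from HERC5, was 1333 bp wide in the control and 1319 to 1367 bp in the knockouts. A peak of 251 bp in the IGF2BP3 knockout list (88514785 to 88515035, percentile 0.3) lay 8.62 kb from HERC5 and was in no other list.

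USP18, the protease that removes ISG15, spans 27228 bp on chromosome 22 (18150170 to 18177397). All 4 lists had a peak at its lower-coordinate end, which as background is its start. The peak measured 777 bp in the control (18149486 to 18150262), 1425 bp in IGF2BP1 knockout cells (18149506 to 18150930), 853 bp in IGF2BP2 knockout cells (18149499 to 18150351) and 821 bp in IGF2BP3 knockout cells (18149465 to 18150285). The outer edges lay 664 to 705 bp outside the gene in all lists. The inner edge reached 92 bp into the gene in the control, 760 bp in IGF2BP1 knockout cells, 181 bp in IGF2BP2 knockout cells and 115 bp in IGF2BP3 knockout cells. The added width in IGF2BP1 knockout cells was thus on the side of the gene body. A start or end of another gene, LOC124905076, which the peaks did not overlap, lay within 1 kb of their joint span.

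In the IGF2BP1 knockout the USP18 peak was 1.83 times as wide as in the control, and 6.1% of 13207 genes with a promoter peak in both lists were at least 1.5 times wider there. In the other knockouts the ratio was 1.1 and 1.06. IGF2BP1 knockout peaks were wider in general, with a median promoter width ratio of 1.07, and that list alone includes a batch 1 library. The part of list-wide width in the USP18 value was not tested. After dividing each width by the median of its list, the ratio was 1.695.

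A second USP18 site lay inside the gene, beginning 6775 to 6929 bp from the lower-coordinate end, in the 3 knockout lists and not in the control. Its peaks were 664 bp in IGF2BP1 knockout cells (18156945 to 18157608), 536 bp in IGF2BP2 knockout cells (18157063 to 18157598) and 376 bp in IGF2BP3 knockout cells (18157099 to 18157474). These were narrow peaks for their lists, at percentiles 29.0, 34.1 and 8.3. Regions found in every knockout but not the control made up 6.88% of all regions. When each list was limited to its 39194 widest peaks, the internal USP18 peak was left in IGF2BP1 knockout cells alone. Exons and introns were not determined.

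**Figure D3:**
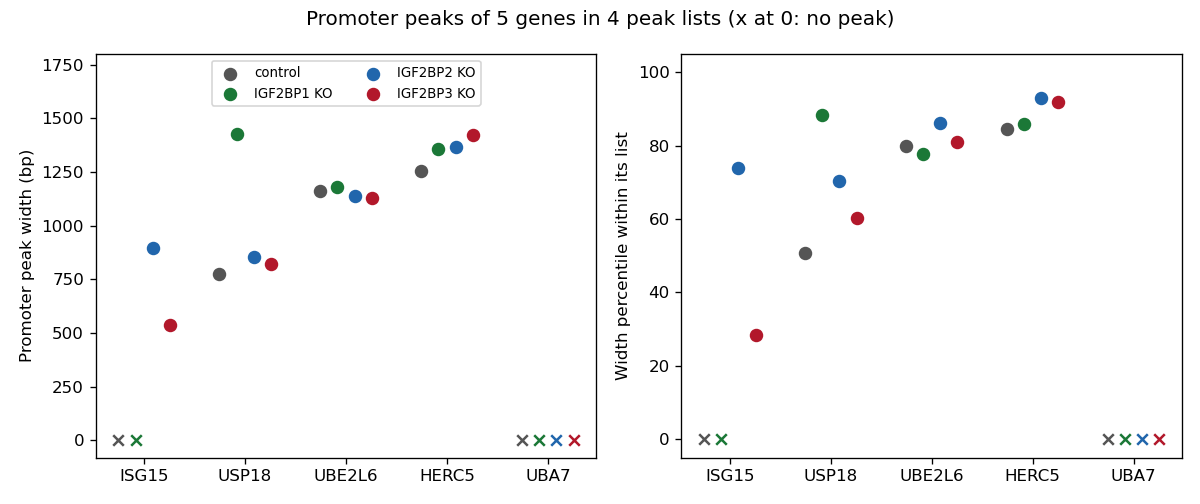
Width in bp (left) and width percentile within the list (right) of the promoter peak of each gene in each list, 1 point per list, with a cross at 0 where there was no peak. UBE2L6 lies between 1128 and 1181 bp in all lists, while USP18 ranges from 777 to 1425 bp and ISG15 has peaks in 2 lists.

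**Figure D4:**
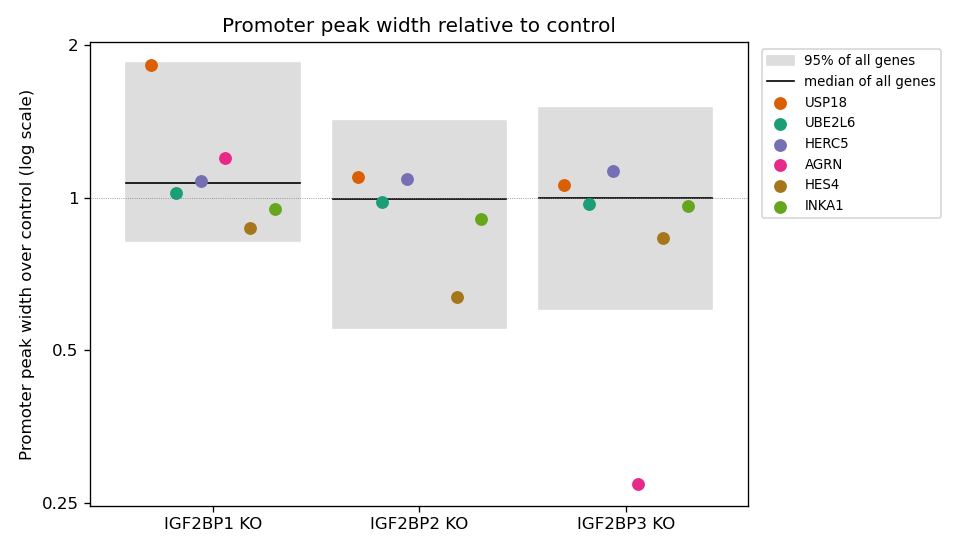
Promoter peak width over the control (y axis, log scale) in each knockout for 3 members and for AGRN, HES4 and INKA1, with the median and the central 95% of all genes with a promoter peak in both lists as a line and a grey band. AGRN in IGF2BP3 knockout cells, at 0.272, lies below the band. It has no point in IGF2BP2 knockout cells, where no peak was listed.

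The wider pathway was described through 26 related genes, listed by textbook role. A promoter peak was present at 24 of them in the control, 25 in IGF2BP1 knockout cells, 24 in the IGF2BP2 knockout and 25 in IGF2BP3 knockout cells. The share of all protein-coding genes was the 66.8 to 68.9% given above, and the number of related genes with a peak was within 1 gene in all lists.

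Of 9 genes that act with ISG15 or USP18, 7 had a promoter peak in the control and 8 in each knockout. HERC6, a HERC ligase next to HERC5, had a peak of 878 bp in the control and 844 to 849 bp in the knockouts. TRIM25 and ARIH1, other ligases linked to ISG15, USP16, a protease, and SKP2, a ligase subunit that targets USP18, had a peak in every list. So did IFNAR2, the receptor chain that USP18 binds, and STAT2, which brings USP18 to it. The difference between lists came from ITGB2, the beta chain of the integrin LFA-1, a receptor of secreted ISG15. ITGB2 had no peak within 1 kb of either end in the control, and peaks of 666, 669 and 853 bp in cells lacking IGF2BP1, IGF2BP2 and IGF2BP3. A promoter peak in all 3 knockouts and not the control occurred at 221 of 19974 genes (1.11%). The partner chain of ITGB2, ITGAL, had a peak in none of the lists.

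All 8 E1 enzymes or subunits for other ubiquitin-like proteins that were examined had a promoter peak in all 4 lists. SAE1, a subunit of the SUMO E1, had a peak of 589 bp in the control (percentile 28.9). It was 1460, 1168 and 1040 bp in cells lacking IGF2BP1, IGF2BP2 and IGF2BP3. For SAE1 a peak within 1 kb of either gene end was counted, and the narrow control peak enters each comparison. Of 29686 regions in all 4 lists, 1.15% were at least 1.5 times wider than the control in all 3 knockouts. The other HERC genes and UBE2L3, the closest relative of UBE2L6, had a promoter peak in all lists (6 of 6). UBE2L3 was 1474 bp wide in the control and 1333, 991 and 1596 bp in cells lacking IGF2BP1, IGF2BP2 and IGF2BP3. These were ratios of 0.904, 0.672 and 1.08, so the knockouts did not share a direction. The HERC2 peak of the IGF2BP2 knockout (497 bp) was no longer counted when lists were limited to 39194 peaks by width.

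Of 5 transcription factors of the interferon response, STAT2, IRF9, IRF1 and IRF3 had a promoter peak in every list. IRF7, which amplifies interferon gene transcription, had a peak of 626 bp in the control, 815 bp in IGF2BP1 knockout cells and 378 bp in IGF2BP3 knockout cells, and none in IGF2BP2 knockout cells. A promoter peak missing from the IGF2BP2 knockout list alone occurred at 138 of 19974 genes (0.691%). For IRF7 and IRF3, as for ITGB2, ITGAL and IFNAR2, a peak within 1 kb of either gene end was counted. The IRF7 peak in the IGF2BP3 knockout dropped out when lists were limited to their 39194 widest peaks. IRF9 was 757 bp wide in the control and 872 to 963 bp in the knockouts, and STAT2 was 866 bp in the control and 921 to 944 bp in the knockouts. IRF3 was 2012 bp in IGF2BP1 knockout cells and 754 to 827 bp in the other lists, and which gene end these peaks lay at was not determined. Of 13207 genes with a promoter peak in the control and the IGF2BP1 knockout, 6.1% were at least 1.5 times wider in that knockout.

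**Figure D5:**
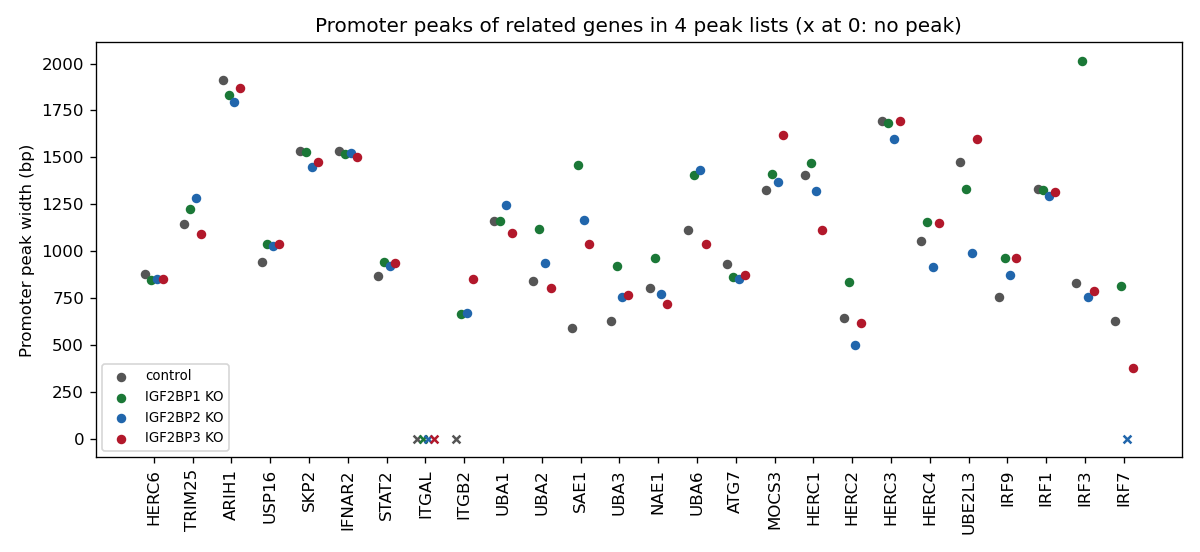
Promoter peak width in bp (y axis) of 26 related genes in each list, with a cross at 0 where no peak was listed. ITGB2 lacks a peak in the control, IRF7 lacks one in IGF2BP2 knockout cells, and ITGAL has none in any list.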

How the data were processed

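The authors deposited 1 peak list per group, each with the chromosome, start and end of its peaks and no score. The submitters' processing notes name fastp 0.24.1, BWA 0.7.17, MACS2 3.0.0, bedtools and the build GRCh38. The threshold of the peak calls and the way libraries were combined are not given in the sources used here. Deeper sequencing or a looser threshold adds narrow peaks, so a peak missing from 1 list may have fallen just short of being called.

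Peaks were matched to RefSeq genes of GRCh38.p14, with coordinates counted from 1, in Python 3.11.15 with pandas 2.3.3. Gene starts came from the RefSeq promoter table for 15812 of 19974 protein-coding genes (3 of 5 members), and both gene ends were used for the others. Peaks sharing at least 1 bp were merged into regions. A width change was called at 1.5-fold. Where a gene had several promoter peaks, the widest was taken. The interval code was tested on simulated data. The members, lists and rules were chosen with earlier results of these data known. All members are described, with related genes whose presence differed, HERC6, UBE2L3 and neighbouring genes. Further genes, such as SAE1, IRF3, SAMD11 and KLHL17, were named after their values were seen. Of the related genes planned, 2 are not reported here.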

Additional observations from a re-analysis of the deposited data

How the results depend on the processing

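No paired analysis was possible because the lists hold no values per library, and leaving out a library was not possible for the same reason. Of 63 alternatives, 60 left the count within 1.5 times its value or the width ratio on its side of 1.5-fold. Merging close peaks or summing promoter peaks changed no width ratio, because each of these promoters had 1 peak in each list. A fall from 4 to 3 members would also pass, so the rule could not flag the loss of 1 promoter peak. The fall from 9 to 6 neighbourhood peaks in the IGF2BP3 knockout, among its widest peaks, passed as well. When a counterpart needed 50% reciprocal overlap in place of 1 shared bp, fewer control peaks of the neighbourhoods had one. The number fell from 6 to 5 for the IGF2BP1 knockout and from 5 to 4 for the IGF2BP2 knockout. For the IGF2BP3 knockout it fell from 6 to 4. Extending the flank to 20 kb raised the peaks in the neighbourhoods to 10 in the control (6 before) and to 11 in both the IGF2BP1 and the IGF2BP2 knockout (7 before). The added regions include the HES4, IP6K1 and HERC3 promoters and sites at no gene start. Keeping the 39194 widest peaks of each list left the ISG15 promoter peak in the IGF2BP2 and IGF2BP3 knockouts and dropped 4 peaks of the neighbourhoods. These were the AGRN and the 251 bp HERC5 peaks of the IGF2BP3 knockout, and the internal USP18 peaks of the IGF2BP2 and IGF2BP3 knockouts. Of the related genes, HERC2 then lacked a promoter peak in the IGF2BP2 knockout (23 genes with a peak, 24 before) and IRF7 in the IGF2BP3 knockout (24, 25 before). The share of genes with the ISG15 pattern was then 0.185% (an alternative chosen after seeing the data). Read depth is unknown, so a site near the calling threshold cannot be told from a closed one.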

Other observations

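Of the 14 regions within 100 kb of ISG15 that all 4 lists held, 10 (71.4%) were narrower than the control in the IGF2BP2 knockout and 8 (57.1%) in the IGF2BP3 knockout. Over all 29686 regions in 4 lists, 50.8% and 55.7% were narrower, so the IGF2BP3 knockout count was near that share. The regions had median width ratios of 0.868 and 0.822, against 0.997 and 0.979 over all. In the IGF2BP1 knockout, 6 of 14 (42.9%) were narrower, against 24.8% over all, and the median was 1.13, against 1.09 over all. Within 500 kb of ISG15, 4 of 67 regions (5.97%) were missing from the IGF2BP2 knockout alone, against 0.897% of all regions, and 2 (2.99%) were in the IGF2BP2 and IGF2BP3 knockouts alone, against 3.5%. This window contains the 100 kb window, so it is not a separate observation. Its 4 regions include those at SAMD11, KLHL17 and AGRN, and its 2 regions include ISG15 itself. Neighbouring regions are not independent, and the window was centred on a gene chosen with its values known.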
